A study of Mus musculus with 16 samples.

Results

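Gene expression after disc injury was compared within wild-type mice of a series on the Adam8EQ allele. The members are the 4 libraries titled as injured wild type and the 3 titled as intact wild type, 7 of 16 libraries in all. The other 9 came from Adam8EQ mutants, 5 injured and 4 intact, and entered the fit to steady the estimate of spread. Each library was bulk RNA sequencing of intervertebral discs of 1 mouse, with 4 tail discs cut from their endplates and pooled per mouse. Adam8 encodes a membrane-anchored metalloprotease. The series title names DBA, an inbred strain, as the strain compared with the mutant. The wild-type genotype was read from the titles, because that field of the labels is cut short. The age of the mice, the way the discs were injured, the time from injury to collection and which of the pooled discs were injured are not given in the sources used here. All levels are TPM, reads scaled by gene length and library total. Changes are differences of mean log2(TPM + 1), injured minus intact, and on this scale low genes appear to change less than they do. A gene was called when limma's Benjamini-Hochberg adjusted p over 24188 tested genes was under 0.05, and errors of changes are limma's moderated standard errors.

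An intervertebral disc joins neighbouring vertebrae. Its core, the nucleus pulposus, descends from the notochord and is rich in the proteoglycan aggrecan, and it is enclosed by collagen lamellae, the annulus fibrosus, and by cartilage endplates. The healthy adult disc holds almost no vessels and few immune cells. Wounding of such tissue is known to be met by cytokines that act through NF-kappaB, STAT3 and C/EBP factors, by secreted acute-phase proteins, by entry of phagocytes and by proteases that cut aggrecan and collagen, followed by cell division and scar matrix.

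The labelled tissue was checked against its markers in the intact mice. Acan, which encodes aggrecan, lay at 6074, 6878 and 6317 TPM in intact mice 1 to 3. The notochordal transcription factor T lay at 3370.1, 3029.8 and 2623 TPM, and the carbonic anhydrase Car3, high in nucleus pulposus, at 8957, 9402 and 9947 TPM. The wild-type libraries held 10639432 to 14872224 reads, as implied by the TPM steps. Mitochondrial genes took 6.89% to 7.70% of TPM in injured and 4.53% to 6.35% in intact mice, so the groups did not overlap in this share, and its part in the results below was not tested. Pearson correlations of log2(TPM + 1) between wild-type libraries ran from 0.843 to 0.950.

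The 4 injured mice did not differ from the intact mice to the same extent. On the first principal component of the wild-type libraries, which took 45.9% of the variance, injured mice 1 to 4 lay at -29.0, -7.39, 114.3 and 65.6. The intact mice lay between -50.8 and -44.8, so injured mouse 1 was nearest to them and mouse 3 farthest. The median SD of a gene on the log2 scale was 0.35 among injured mice (n = 4) and 0.23 among intact mice (n = 3). The animal numbers in the library names, 3728 and 3729 for injured mice 1 and 2, 3739 and 3740 for mice 3 and 4, and 3667 to 3669 for the intact mice, fall into 3 blocks that differ in position on this component. The labels do not say what the numbers mark, so a number block and injury cannot be told apart. Nor can a number block be told apart from a difference in response between injured mice 1 and 2 and mice 3 and 4.

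In the wild type, 28 genes were called, 0.116% of all tested. Of these, 26 rose (0.107%) and 2 fell (0.00827%). They included secreted acute-phase and protease-inhibitor genes (Lcn2, Chil1, Timp1), regulators of inflammatory transcription (Bcl3, Cebpd), a membrane protease (Adam12), the coagulation trigger F3 and genes of metal and redox handling (Mt2, Slc39a14, Txn1). At an unadjusted p under 0.05 there were 2482 higher genes (10.3%) and 1673 lower genes (6.92%). Every one of the 4 injured values lay above every intact value in 2229 genes (9.22%) and below in 1534 (6.34%), and these shares are the background for the counts that follow. With 1 mouse left out, overlap is less likely, and 2545 to 3413 genes were higher and 1791 to 3010 lower without it. Leaving out 1 mouse moved the number of called genes. The count was 452 without injured mouse 1, 12 without mouse 2, 11 without mouse 3 and 10 without mouse 4, and 2, 5 and 7 without intact mice 1, 2 and 3. When only the 7 wild-type libraries were fitted it was 4, of which 1, Chil1, was among the 28. Of the 28, 0 were called under every alternative.

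**Figure D1:**
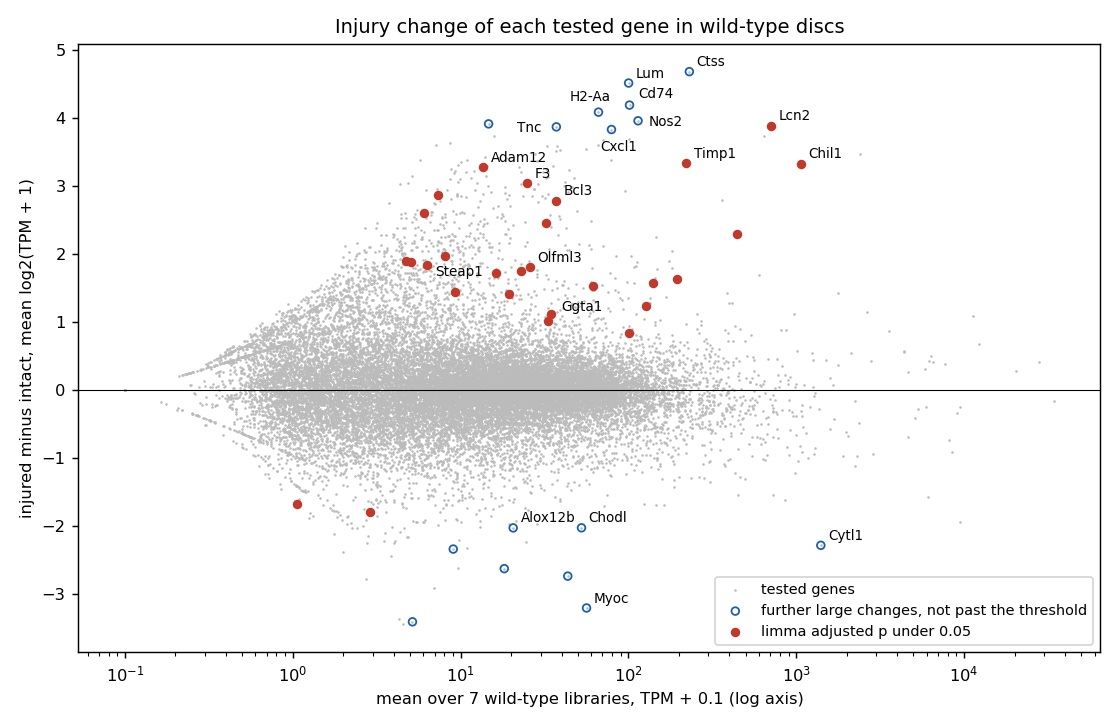
Injury change of all 24188 tested genes, injured minus intact mean log2(TPM + 1), against the mean level over the 7 wild-type libraries on a log axis. Filled points are the 28 called genes, 26 of them above 0. Open circles are the further named genes, which had large changes but did not pass, such as Ctss at 4.68.

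The 4 called genes with the smallest adjusted p among those with a symbol and an entry in the RefSeq promoter table were Ggta1, Olfml3, Chil1 and Lcn2. Ggta1 (chr2:35400179-35463231, minus strand) encodes the galactosyltransferase that makes the alpha-Gal sugar of mouse glycoproteins. It lay at 48.4, 40.02, 50.2 and 40.8 TPM in injured mice 1 to 4 and at 18.8, 17.95 and 24.1 TPM in intact mice 1 to 3. The injured values were close to each other and all above the intact ones, and the rise was 1.11 ± 0.12 (SE, limma adjusted p 0.002002). Olfml3 (chr3:103722222-103738001, minus strand), a secreted olfactomedin-domain glycoprotein, lay at 30.5, 35.8, 53.6 and 31.9 TPM in injured and 10.6, 8.93 and 10.1 TPM in intact mice. Mouse 3 was the highest, and the rise was 1.80 ± 0.19 (SE, limma adjusted p 0.002002). Chil1 (chr1:134182176-134190181, plus strand) encodes a secreted chitinase-like lectin made by inflamed cartilage and macrophages. Intact mice averaged 171 ± 24.2 TPM (SD, n = 3) and injured mice 1752 ± 414 TPM (SD, n = 4). Its injured values, 1396, 1394, 2055 and 2162 TPM, were all far above the intact 144, 177 and 191 TPM, also in mice 1 and 2, and it rose by 3.33 ± 0.42 (SE, limma adjusted p 0.006085). Lcn2 (chr2:32384633-32388252, minus strand) encodes lipocalin 2, which binds bacterial siderophores. It lay at 478, 723, 1805 and 1762 TPM in injured and 63.7, 58.4 and 85.8 TPM in intact mice, with mice 3 and 4 highest, and rose by 3.89 ± 0.50 (SE, limma adjusted p 0.006872). Ggta1, Olfml3 and Chil1 each kept their call under 15 of 16 alternative settings. Ggta1 and Olfml3 lost it when only wild-type libraries were fitted (limma adjusted p 0.112 and 0.0853), and Chil1 lost it without intact mouse 1 (0.0608).

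As all 4 genes rose, the 250 bases before each RefSeq start (GRCm38.p6, printed 5′ to 3′ on the gene's strand) were searched on both strands for 4 motifs of wound and acute-phase factors. The motifs were AP-1 (TGANTCA), C/EBP (TTGCNNAA), STAT (TTCNNNGAA) and the NF-kappaB consensus, and matches to different motifs may overlap. RefSeq starts can lie inside the gene bounds given above, which are those of GENCODE M21 on GRCm38. Capitals mark a match.
Ggta1, chr2:35461450-35461699, minus strand: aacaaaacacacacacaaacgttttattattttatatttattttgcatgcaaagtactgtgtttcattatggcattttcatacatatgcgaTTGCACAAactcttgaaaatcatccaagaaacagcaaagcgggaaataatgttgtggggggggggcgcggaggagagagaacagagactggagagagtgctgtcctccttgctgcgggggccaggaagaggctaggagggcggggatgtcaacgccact
Olfml3, chr3:103738002-103738251, minus strand: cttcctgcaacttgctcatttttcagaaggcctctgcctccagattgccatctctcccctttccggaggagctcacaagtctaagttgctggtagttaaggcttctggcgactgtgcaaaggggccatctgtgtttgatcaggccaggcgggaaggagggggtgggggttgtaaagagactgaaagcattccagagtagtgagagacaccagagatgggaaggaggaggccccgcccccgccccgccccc
Chil1, chr1:134181906-134182155, plus strand: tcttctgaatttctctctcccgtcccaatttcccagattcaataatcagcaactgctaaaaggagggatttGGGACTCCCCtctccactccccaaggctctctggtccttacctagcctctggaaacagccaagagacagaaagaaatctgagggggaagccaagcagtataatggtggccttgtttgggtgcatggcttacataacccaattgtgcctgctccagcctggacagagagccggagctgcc
Lcn2, chr2:32387740-32387989, minus strand: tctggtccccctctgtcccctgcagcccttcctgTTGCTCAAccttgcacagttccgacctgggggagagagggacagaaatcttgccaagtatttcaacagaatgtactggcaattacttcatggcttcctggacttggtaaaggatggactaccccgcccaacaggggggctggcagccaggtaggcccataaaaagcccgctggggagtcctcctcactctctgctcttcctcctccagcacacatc
Ggta1 held 1 C/EBP match, 159 bases before the start, and Lcn2 held 1, 216 bases before it. Chil1 held 1 NF-kappaB match, 179 bases before the start. Olfml3 held no match to the 4 motifs in this window. Among 32851 RefSeq windows of this length, 9.56% held the C/EBP motif, 3.90% NF-kappaB, 7.02% STAT and 6.75% AP-1. A match is a string of letters and not a measured binding site.

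Among the transcriptional regulators, Bcl3 encodes a nuclear IkappaB protein that modulates NF-kappaB dimers. It lay at 32.7, 31.1, 119 and 55.7 TPM in injured and 9.46, 8.63 and 3.29 TPM in intact mice and rose by 2.78 ± 0.42 (SE, limma adjusted p 0.02672). Cebpd, a C/EBP factor of the acute-phase response, lay at 68.4, 84.6, 105 and 83.4 TPM against 22.7, 32.9 and 31.0 TPM, and its injured values were close in all 4 mice. It rose by 1.54 ± 0.27 (SE, limma adjusted p 0.0491). Uhrf1, which brings the maintenance DNA methyltransferase to replicating DNA, lay at 4.51, 8.26, 12.1 and 6.10 TPM against 0.797, 1.92 and 1.18 TPM and rose by 1.88 ± 0.31 (SE, limma adjusted p 0.04139). Injured mouse 3 had the highest value of all 3 regulators.

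Of genes that act on the matrix, Timp1 encodes an inhibitor of matrix metalloproteinases. It lay at 110.3, 199.7, 733 and 423 TPM in injured and 29.1, 34.0 and 21.4 TPM in intact mice, and rose by 3.33 ± 0.49 (SE, limma adjusted p 0.02479). Adam12, a membrane-anchored metalloprotease of growing mesenchyme, was near 1 TPM in intact mice (0.803, 1.61 and 0.550 TPM) and reached 6.18, 13.3, 49.5 and 23.1 TPM in injured mice, a rise of 3.28 ± 0.50 (SE, limma adjusted p 0.02672). Its highest injured value was 8.02 times the lowest, the widest ratio among the called higher genes. Tmem2, a cell-surface hyaluronidase, lay at 24.5, 28.9, 34.1 and 20.2 TPM against 9.47, 9.38 and 9.13 TPM and rose by 1.41 ± 0.23. Prss46, a trypsin-family protease, lay at 8.80, 13.5, 18.8 and 7.06 TPM against 1.77, 0.701 and 0 TPM and rose by 2.87 ± 0.51. F3 encodes tissue factor, the cell-surface starter of coagulation. It lay at 20.01, 25.1, 72.8 and 44.8 TPM in injured and 3.76, 5.35 and 2.00 TPM in intact mice and rose by 3.04 ± 0.51 (SE, limma adjusted p 0.04139). In all 5 genes every injured mouse lay above every intact mouse.

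A further group handles metals, redox balance and secretion. Mt2, a metallothionein that binds zinc and copper, lay at 391, 332, 1170.0 and 853 TPM in injured and 118, 131 and 118 TPM in intact mice and rose by 2.29 ± 0.39 (SE, limma adjusted p 0.04166). Slc39a14, the zinc and iron importer ZIP14, lay at 245, 259, 341 and 247 TPM against 93.2, 103 and 68.5 TPM and rose by 1.63 ± 0.28. Txn1, thioredoxin, lay at 110.3, 141, 257 and 175 TPM against 67.2, 79.8 and 60.5 TPM and rose by 1.23 ± 0.22. Steap1, of the metalloreductase family, rose by 1.73 ± 0.28, and Aldh1l2, a mitochondrial folate enzyme, by 1.90 ± 0.32. Sec24d, a cargo-binding coat protein of vesicles leaving the endoplasmic reticulum, had the smallest rise of all called genes, 0.83 ± 0.14, from 62.0, 75.5 and 70.8 TPM to 101, 118, 138 and 144 TPM. The other named called genes were Muc1, a transmembrane mucin (1.74 ± 0.30), Lair1, an inhibitory immune receptor that binds collagen (1.83 ± 0.33), Dab2, an endocytic adaptor (1.57 ± 0.26), and Bzw2, a translation regulator (1.01 ± 0.18). In Muc1 the injured values were 39.8, 36.1, 29.0 and 26.7 TPM, and in Bzw2 45.1, 49.2, 38.7 and 36.8 TPM, with mice 1 and 2 above mice 3 and 4 in both. These 10 genes had limma adjusted p between 0.04139 and 0.04987. Of the 26 higher genes, 21 were highest in mouse 3, and mice 1, 2 and 4 held the highest value of 2, 1 and 2 genes.

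**Figure D2:**
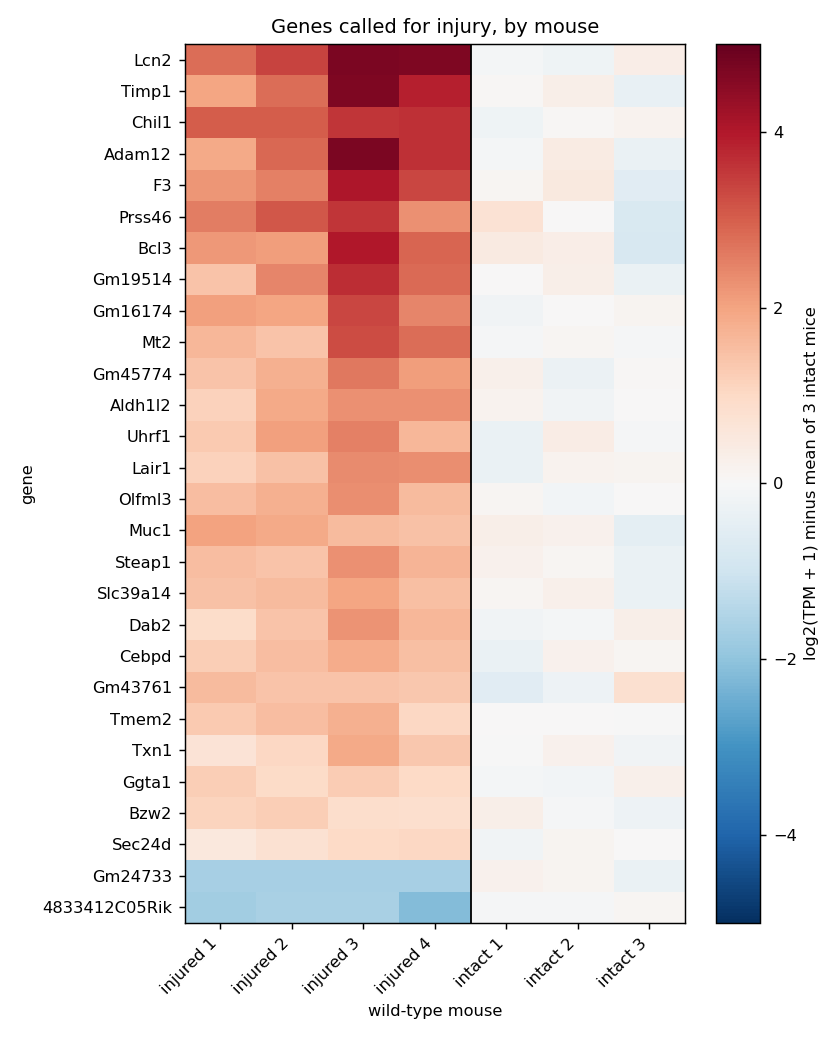
The 28 called genes (rows) in each of the 7 wild-type mice (columns), coloured by log2(TPM + 1) minus the mean of the 3 intact mice. Mouse 3 holds the highest value in 21 of the 26 higher genes, while Ggta1 is nearly even across injured mice.

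The remaining 6 called genes have identifier-type names, and 4 of them overlap a called gene. Gm43761 overlaps Ggta1 and Gm19514 overlaps Adam12 on the same strand, while Gm16174 lies opposite Bcl3 and Gm45774 opposite Mt2. How the counting used strand is not given in the sources used here, so these 4 pairs may share reads and are not 8 separate measurements. Both falls were of noncoding genes with little signal. The long noncoding 4833412C05Rik lay at 0.918, 1.06, 1.08 and 0.401 TPM against 5.11, 5.18 and 5.84 TPM, and fell by 1.79 ± 0.30 (SE, limma adjusted p 0.04139). Gm24733 was listed at 0 in all 4 injured libraries and at 2.68, 2.48 and 1.53 TPM in the intact ones, which is 1 or 2 implied reads each.

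Some genes differed more than most of these but did not pass the threshold, and in them the injured mice were far apart. The lysosomal protease gene Ctss, which trims antigens in phagocytes, lay at 27.8, 87.0, 893 and 588 TPM in injured and 6.50, 6.02 and 6.85 TPM in intact mice (4.68 ± 1.02, SE, limma adjusted p 0.1009). Lum, a collagen-binding proteoglycan of fibrous tissue, lay at 4.17, 39.97, 545 and 108 TPM against 3.11, 0.606 and 1.68 TPM. Nos2, the inducible nitric oxide synthase, lay at 6.60, 14.0, 465.83 and 303 TPM against 4.16, 3.49 and 1.93 TPM. The genes of this paragraph were taken from those without overlap of the groups, so their separation follows from the choice. In Ctss, Lum and Nos2, mouse 1 was nearest to the intact mice and mouse 3 farthest. Cxcl1, a neutrophil attractant, lay at 2.05, 2.76, 269 and 277 TPM against 1.27, 1.68 and 0.621 TPM, and the de-adhesive matrix protein gene Tnc at 3.46, 16.3, 189 and 48.2 TPM against 1.005, 0.890 and 1.10 TPM. Cd74 and H2-Aa, of MHC class II presentation, differed by 4.19 ± 0.99 and 4.09 ± 0.94 (SE). Both were highest in mouse 3. Among lower genes, Myoc, which encodes myocilin, lay at 34.6, 13.0, 5.95 and 5.25 TPM against 100.01, 109 and 126 TPM (-3.21 ± 0.73, SE, limma adjusted p 0.1027). Cytl1, a secreted cartilage cytokine, lay at 1176, 951, 116 and 396 TPM against 1839, 2168 and 3169 TPM. The lectin gene Chodl and the lipoxygenase gene Alox12b both differed by -2.03. The other large differences by the same rule were in the miRNA hairpin genes Mir5709, Mir7655, Mir6924, Mir7236 and Mir3110, which rested on 0 to 17 implied reads per library.

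The gene lists held 624 different tested genes in 58 lists, 19 of cell type markers and 39 of pathways. Of the 624, 6 were called, all higher: Chil1, Lcn2, Bcl3, Timp1, Adam12 and Mt2. At an unadjusted p under 0.05, 187 were higher and 43 lower. The groups did not overlap in 149 higher genes, against 9.22% of all tested genes, and in 56 lower genes, against 6.34%. The lists were chosen with earlier results known, so these shares describe the lists and test nothing. The median change was above that of all genes, 0.01, in 42 of 58 lists.

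Macrophage markers had the highest median of the cell type lists, except with pseudocount 0.1, where the 3 osteoclast markers had 2.87 and macrophages 2.56. In 11 of 15 tested markers all injured mice lay above all intact mice, and the median change was 2.17. None was called by limma, and 13 had an unadjusted p under 0.05. Ccr2, the receptor that brings monocytes from blood, lay at 3.93, 15.0, 53.2 and 22.9 TPM in injured and 0.904, 0.604 and 0.516 TPM in intact mice (3.42 ± 0.62, SE, limma adjusted p 0.05385). Adgre1, the F4/80 antigen, lay at 3.95, 11.4, 86.5 and 49.1 TPM against 1.46, 2.03 and 0.717 TPM. Lyz2, the lysozyme of myeloid cells, lay at 71.6, 189, 2453 and 1694 TPM against 40.2, 37.2 and 30.9 TPM, and the mannose receptor gene Mrc1 at 6.33, 8.37, 73.6 and 30.0 TPM against 3.30, 2.81 and 3.10 TPM. All 4 were low in mouse 1, higher in mouse 2 and highest in mouse 3. Csf1r, the growth factor receptor of the lineage, did not follow them, at 54.4, 40.9, 118 and 59.6 TPM against 54.7, 70.7 and 45.4 TPM. In bulk discs, more cells of a type and more RNA of its genes per cell cannot be told apart. Summed over the list the markers took 189 to 226 TPM in intact and 302 to 4339 TPM in injured mice. Without injured mouse 1, 5 of the 15 markers and 452 of all 24188 genes were called.

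Neutrophil markers had a median of 0.66, and those that differed most did so in a pair of mice. S100a8, a calcium-binding protein abundant in neutrophils, lay at 0, 0.533, 38.6 and 42.3 TPM in injured and 0.489, 1.36 and 0 TPM in intact mice. S100a9, its partner, lay at 0.613, 0, 55.4 and 51.9 TPM against 0, 1.20 and 0 TPM, and Csf3r, the granulocyte growth factor receptor, at 0.887, 1.54, 73.7 and 35.6 TPM against 0.941, 0.697 and 0.860 TPM. These 3 genes were near the intact level in injured mice 1 and 2 and far above it in mice 3 and 4. The granule protein genes Elane and Camp, Camp named after its values were seen, were in contrast lowest in mice 3 and 4, with Camp at 6.76, 5.86, 2.78 and 2.21 TPM against 6.27, 10.8 and 5.12 TPM. Summed, the list took 15.0 to 20.6 TPM in intact and 11.5 to 206 TPM in injured mice. None of 10 tested markers was free of overlap, and Ly6g, Mpo, Ltf and Padi4 were too low to be tested. By limma 0 were called, and 1, Elane, had an unadjusted p under 0.05 and was lower. Of 3 osteoclast markers 2 were higher without overlap, among them Atp6v0d2, a proton pump subunit, at 0.943, 3.95, 7.43 and 6.48 TPM against 0.500, 0.347 and 0.428 TPM. Of the 9 tested T cell, B cell and mast cell markers 2 were higher without overlap, Cd2 and Cma1, and none exceeded 12.1 TPM in any wild-type library. The markers Cd3e and Fcer1a were too low to be tested.

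In fibroblasts, 4 of 10 markers did not overlap and were higher, with a median of 1.41. Col3a1, the collagen of young scar, lay at 79.0, 197, 1714 and 412 TPM in injured and 32.9, 61.3 and 47.9 TPM in intact mice. The growth factor receptor gene Pdgfra lay at 24.5, 33.5, 117 and 66.5 TPM against 17.3, 15.6 and 26.2 TPM. Of 9 tendon and outer annulus markers 4 were higher without overlap, Thbs4, Col12a1, Col1a1 and Col1a2, and the median was 0.44. Thbs4, a thrombospondin, lay at 60.9, 82.1, 613 and 173 TPM against 29.8, 46.2 and 21.9 TPM. The tendon transcription factor Mkx, a defining marker, had its lowest value in mouse 3, at 128, 135, 54.6 and 165 TPM against 145, 170.5 and 210.1 TPM. Endothelial markers had a median of 1.31, but all 11 overlapped. Pecam1, an adhesion molecule of vessels, lay at 3.44, 5.17, 62.8 and 19.1 TPM against 6.49, 2.02 and 3.36 TPM, so only mice 3 and 4 were above the intact range. The mean log2 level of the endothelial list, relative to the intact mean, was -0.23, 0.32, 3.20 and 1.79 in injured mice and 0.56, -0.43 and -0.14 in intact mice. Summed hemoglobin and other red cell markers ran from 113 to 1473 TPM in injured and 265 to 728 TPM in intact mice, with mice 3 and 4 highest among the injured, so red cell transcripts differed between mice and their part in the other lists was not tested.

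Most nucleus pulposus markers were lower. Of 10 tested notochordal markers, 6 were lower in every injured mouse than in any intact mouse and the median was -1.03. None passed limma's adjusted threshold, and 4 had an unadjusted p under 0.05. Krt19, a keratin of notochordal cells, lay at 426, 305, 119.5 and 208 TPM in injured and 723, 787 and 599 TPM in intact mice. Car3 lay at 5871, 4966, 1589.9 and 2135 TPM against 8957, 9402 and 9947 TPM, and Cdh2, the N-cadherin that joins these cells, at 103, 87.1, 41.5 and 58.1 TPM against 150.2, 149 and 141 TPM. The transcription factor T overlapped, with 2954, 2265, 759.6 and 1069 TPM in injured mice, the highest of which was within the intact range. A positive change was found in 1 of 10, Foxa2, named after its values were seen. Relative to the intact mean it stood at 1.04, 1.45, -1.10 and -0.54 in injured mice 1 to 4. Summed over the list, markers took 3454 to 11829 TPM in injured and 16403 to 16626 TPM in intact mice. TPM are shares of a fixed total, and under the alternatives, other scalings included, 6 to 8 markers were lower without overlap and the median ran from -1.29 to -0.77. With 1 mouse left out, 1791 to 3010 of all 24188 genes were lower without overlap, against 1534 with all mice.

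General chondrocyte markers did not move together. Their median was -0.01, and 0 and 1 of 11 were free of overlap above and below. Chad, a cartilage matrix protein that binds integrins, lay at 7784, 6743, 1008 and 4768 TPM in injured and 13184, 15935 and 17188 TPM in intact mice. Col2a1, the main cartilage collagen, lay at 4200.0, 4454, 1052 and 9312 TPM against 1697, 2331 and 2046 TPM, below every intact mouse in injured mouse 3 and above them in the other injured mice. The chondrocyte list was 0.24, 0.25, -1.09 and 0.40 relative to the intact mean in injured mice 1 to 4. Mouse 3 thus lay below the intact mice and the other 3 above them.

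Skeletal muscle markers, which can come from tissue around the disc, had a median of -1.39 with 3 of 13 lower without overlap. This count became 11 when injured mouse 1 and 12 when intact mouse 3 was left out. Over all 24188 genes, 2976 and 3010 were then lower without overlap, against 1534 with all mice. The muscle markers varied among intact mice, at 1.003, -0.07 and -0.94 relative to their own mean, and lay at -0.74, -1.59, -1.89 and -1.29 in injured mice. Their sum took 284 to 1159 TPM in intact and 129 to 327 TPM in injured mice, with intact mouse 1 highest. Keratinocyte markers had a median of -0.70, and Krt5 and Krt14 were too low to be tested. What part these shares play in the other lists was not tested.

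**Figure D3:**
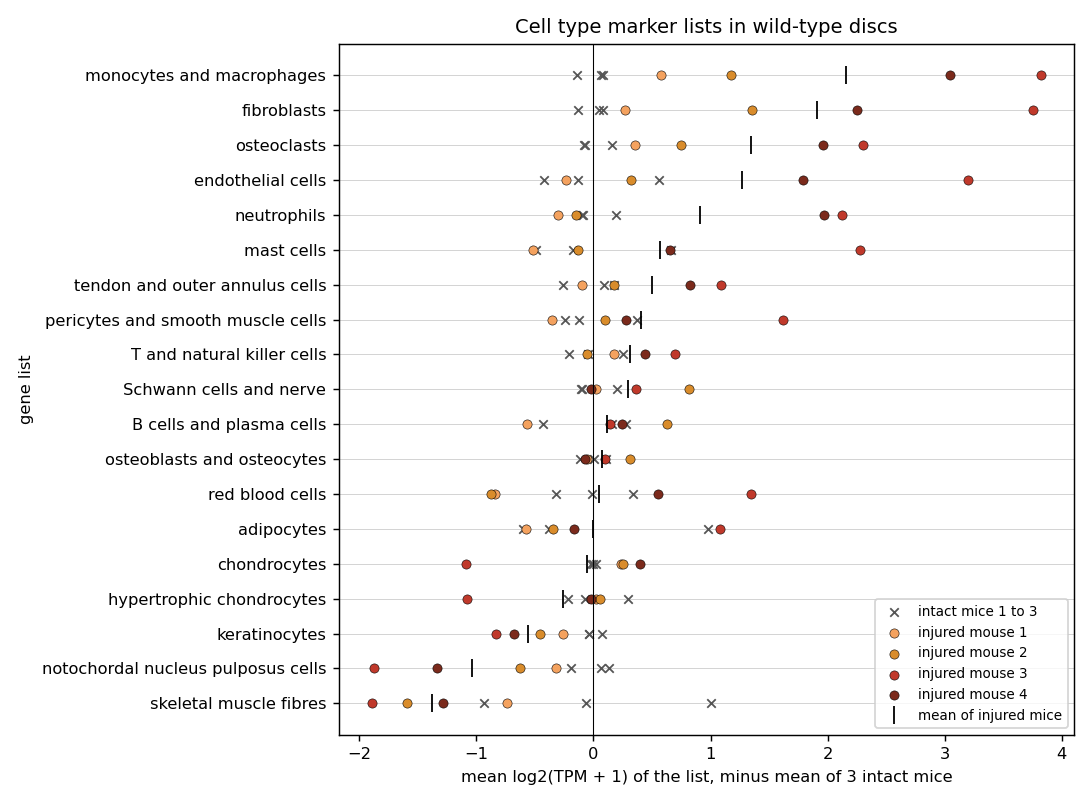
Mean log2(TPM + 1) of each cell type list in each wild-type mouse, minus the mean of the 3 intact mice (crosses: intact, circles: injured mice 1 to 4, bars: injured mean). Macrophage markers lie above all intact mice in all 4 injured mice, endothelial and neutrophil markers in a pair of mice, and notochordal markers below in all 4.

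Cell cycle genes were higher in all 4 injured mice. In 15 of 16 genes every injured mouse lay above every intact mouse, and the median change was 1.54. By limma 0 were called, and 15 had an unadjusted p under 0.05. Without injured mouse 1, 7 of the list and 452 of all 24188 genes were called. Mki67, a marker of dividing nuclei, lay at 12.1, 10.4, 36.2 and 17.3 TPM in injured and 2.53, 3.37 and 2.81 TPM in intact mice (2.20 ± 0.40, SE, limma adjusted p 0.0568). Cdc20, an activator of the anaphase-promoting complex, lay at 11.7, 7.93, 15.96 and 9.27 TPM against 3.27, 3.53 and 2.70 TPM (1.51 ± 0.29, SE, limma adjusted p 0.07245). Top2a, the DNA topoisomerase of mitosis, lay at 7.28, 5.92, 13.7 and 6.51 TPM against 1.62, 1.64 and 1.59 TPM, and the mitotic cyclin gene Ccnb2 at 9.41, 6.53, 23.0 and 15.0 TPM against 1.55, 3.08 and 3.29 TPM. Rrm2, a ribonucleotide reductase subunit named after its values were seen, lay at 17.2, 14.2, 15.2 and 11.6 TPM against 4.90, 2.50 and 6.16 TPM, highest in mouse 1. The list stood at 1.25, 1.06, 2.03 and 1.27 above the intact mean in injured mice 1 to 4 and at -0.04, 0.02 and 0.03 in intact mice. Mcm2, a helicase subunit, was the 1 member that overlapped. Levels were low throughout, and under the alternatives 10 to 16 genes of the 11 to 16 tested were free of overlap. With 1 mouse left out, 2545 to 3413 of all 24188 genes were higher without overlap, against 2229 with all mice.

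**Figure D4:**
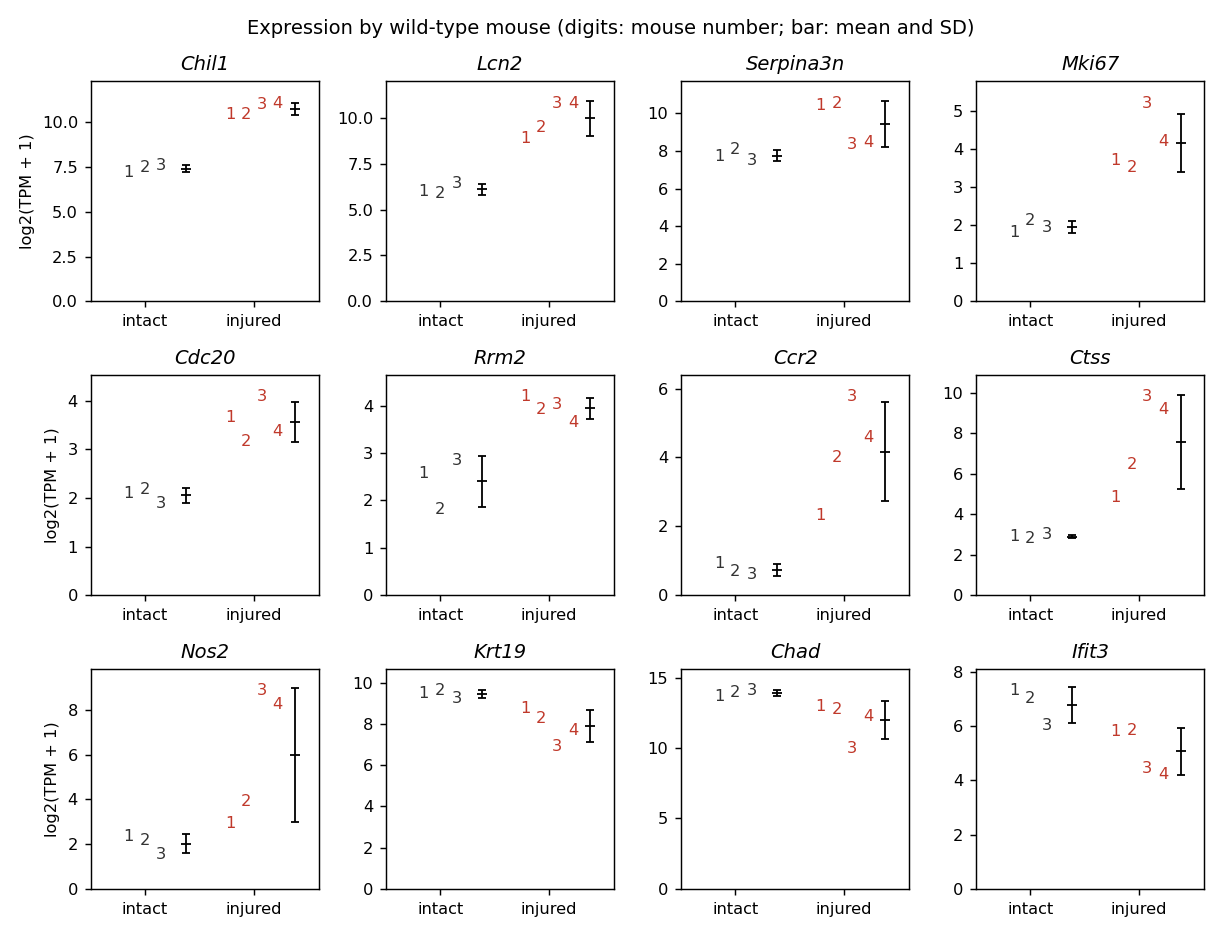
Levels of 12 genes in log2(TPM + 1), with each digit the number of a wild-type mouse and bars the mean and SD of its group (intact n = 3, injured n = 4). Mki67, Cdc20 and Chil1 are above the intact mice in all 4 injured mice, Ctss, Ccr2 and Nos2 are highest in mice 3 and 4, Serpina3n in mice 1 and 2, and Krt19, Chad and Ifit3 are lower.

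Acute-phase genes held 2 of the called genes, Chil1 and Lcn2. Of 14 tested, 7 were free of overlap and higher, and the median was 1.55. Saa1, serum amyloid A, lay at 2.71, 8.67, 91.3 and 54.7 TPM in injured and 0.685, 0.888 and 0 TPM in intact mice, and Saa2 at 1.27, 4.12, 28.9 and 15.4 TPM against 0.135, 0.250 and 0 TPM. These 2 genes are near-identical copies, so reads between them are uncertain. Serpina3n, a secreted serine protease inhibitor, was named after its values were seen because its order was opposite. It lay at 1380.1, 1499, 319.9 and 355 TPM in injured and 210.2, 265 and 177 TPM in intact mice, highest in mice 1 and 2 (limma adjusted p 0.3385). Serpina3m of the same family, also chosen after its values were seen, had mice 1 and 2 highest at lower levels, 13.2, 19.4, 5.43 and 5.53 TPM, and both may share reads.

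Cytokine and chemokine ligands were low in intact discs. In the CXC list 5 of 11 and in the CC list 6 of 12 were higher without overlap, with medians of 2.38 and 2.29. Ccl2, the main monocyte attractant, lay at 10.1, 9.11, 107 and 67.5 TPM in injured and 3.28, 2.21 and 2.73 TPM in intact mice, and Ccl7, which binds the same receptor, at 24.0, 22.2, 164 and 94.9 TPM against 8.90, 6.67 and 3.39 TPM. Cxcl5, a neutrophil attractant, lay at 0.515, 1.99, 66.8 and 28.3 TPM against 0, 0.337 and 0 TPM. Both CC ligands were above the intact range in all 4 injured mice, while Cxcl5 in mouse 1 lay just above the intact range. In the interleukin-6 family, the cytokine gene Il11 lay at 7.48, 17.3, 149 and 92.8 TPM against 2.87, 1.87 and 2.31 TPM (3.53 ± 0.80, SE, limma adjusted p 0.1027). Osmr, the oncostatin M receptor, was even across mice, at 69.4, 68.8, 82.0 and 80.1 TPM against 39.2, 39.1 and 26.9 TPM (1.09 ± 0.26, SE, limma adjusted p 0.1133). The kinase gene Jak2 lay at 68.5, 72.1, 87.8 and 60.7 TPM against 52.98, 48.0 and 52.5 TPM. That list had 6 genes higher and 1 lower of 14, and by limma 0 genes of the 3 lists were called, with 7, 6 and 7 higher at an unadjusted p under 0.05 in the CXC, CC and interleukin-6 lists.

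Receptors and transducers of inflammation were next. Of 16 NF-kappaB genes, 6 were higher without overlap, with Bcl3 the 1 called. Nfkbiz, a nuclear IkappaB, lay at 37.4, 38.5, 133 and 92.0 TPM in injured and 30.8, 24.3 and 22.3 TPM in intact mice, and Tnfaip2, a TNF-induced gene, at 4.24, 9.51, 66.1 and 34.4 TPM against 2.25, 2.46 and 2.18 TPM. In the TNF superfamily 6 of 12 were higher. Tnfrsf1b, the TNF receptor of leukocytes, differed by 3.20 ± 0.77, and the widely expressed receptor gene Tnfrsf1a by 0.71 ± 0.18 (SE), with 221, 224, 306 and 226 TPM against 156, 180.2 and 114 TPM. Of 9 interleukin-1 genes, 5 were higher and 1 was lower. The lower gene was the alarmin Il33, at 63.7, 55.8, 38.3 and 48.0 TPM against 65.1, 92.6 and 104 TPM. In complement, the receptor gene C3ar1 lay at 13.1, 34.2, 255 and 149 TPM against 4.89, 4.38 and 4.05 TPM, while Cd55, which protects cells from complement, was lower at 87.2, 60.1, 50.2 and 57.5 TPM against 121, 128 and 136 TPM. In the prostaglandin and nitric oxide list, 3 of 12 genes were higher and 2 lower without overlap, with a median of 0.19. Ptges, the enzyme that makes prostaglandin E2, lay at 10.9, 16.6, 80.0 and 63.8 TPM against 7.69, 9.35 and 9.97 TPM. Summed, that list took 1072 to 1537 TPM in injured and 1677 to 1940 TPM in intact mice.

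Most interferon-stimulated genes went the other way. None of 16 was higher without overlap, 6 were lower, and the median was -0.71. Ifit3, an antiviral effector, lay at 54.7, 56.7, 20.5 and 17.8 TPM in injured and 158, 128 and 63.8 TPM in intact mice (-1.70 ± 0.51, SE, limma adjusted p 0.153). Irf7, the transcription factor of type I interferon responses, lay at 24.8, 16.1, 9.57 and 13.0 TPM against 52.7, 35.4 and 21.2 TPM. Bst2, which tethers viruses, lay at 15.95, 14.8, 20.01 and 13.9 TPM against 34.6, 44.2 and 21.9 TPM. The mean of the list stood at -0.52, -0.49, -0.64 and -0.46 relative to the intact mean in injured mice, and at 0.32, -0.01 and -0.31 in intact mice 1 to 3. It was nearly the same in all 4 injured mice, but its members were not. A positive change was found in 3 of 16, Mx1, Oas1a and Oas2, named after their values were seen. Relative to the intact mean, Oas2 stood at -0.40, -0.08, 1.59 and 1.65 in injured mice 1 to 4. Mx1 stood at 0.18, -0.16, 1.53 and 1.04, and Ifit3 at -0.98, -0.93, -2.35 and -2.55. By limma 0 were called, and 3 were lower at an unadjusted p under 0.05. Under the alternatives 5 to 8 of the 12 to 16 tested were lower without overlap. With 1 mouse left out, 1791 to 3010 of all 24188 genes were lower without overlap, against 1534 with all mice. Without injured mouse 1, when 452 of all 24188 genes were called, 1 of the list was called lower.

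Proteases of the matrix differed by family. Of 14 matrix metalloproteinase genes, 4 were higher without overlap and the median was 1.34. Mmp3, stromelysin 1, lay at 92.2, 275, 8725 and 7330.1 TPM in injured and 134, 86.0 and 88.9 TPM in intact mice, so mouse 1 was within the intact range and mice 3 and 4 far above it. Mmp14, which is anchored in the membrane and activates other members, lay at 112, 116, 374 and 207 TPM against 106, 102 and 61.2 TPM, and Mmp19 at 10.1, 15.9, 91.0 and 40.6 TPM against 6.37, 6.36 and 7.73 TPM. All 3 were highest in mouse 3. In the ADAM family 4 of 9 were higher, Adam12 called among them. Adam19, like Adam12 a membrane metalloprotease, lay at 5.76, 11.8, 61.3 and 28.2 TPM against 4.34, 4.15 and 2.18 TPM, and Adam8, the gene mutated elsewhere in the series, at 3.52, 5.59, 66.3 and 54.9 TPM against 1.24, 1.69 and 1.59 TPM. The aggrecanase gene Adamts4 lay at 0.333, 1.54, 14.5 and 5.81 TPM against 0.776, 0.327 and 0.0806 TPM, and 1 of 10 ADAMTS genes was free of overlap. Among inhibitors, the leukocyte protease inhibitor gene Slpi lay at 2.98, 6.59, 34.5 and 21.8 TPM against 0, 0.533 and 0.329 TPM (3.30 ± 0.66, SE, limma adjusted p 0.07893), while Timp2 was lower, at 1043, 941, 911 and 776 TPM against 1401, 1419 and 1192 TPM. Plaur, the receptor of urokinase, lay at 18.1, 22.1, 135 and 92.3 TPM against 10.6, 15.0 and 7.56 TPM.

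Of 17 collagens, 4 were higher without overlap, with a median of 0.66. Col1a1, the collagen of bone, tendon and scar, lay at 1082, 1072, 6014 and 1983 TPM in injured and 670.1, 945 and 589 TPM in intact mice, and the fibril-associated Col12a1 at 13.4, 33.5, 153 and 64.6 TPM against 7.87, 10.1 and 11.7 TPM. Injured mouse 3 was the highest for both. Other collagens of the list, named after their values were seen, had the opposite order. Col9a1, Col9a2, Col9a3, Col11a1 and Col11a2 were lowest in mouse 3 and below the intact mean in that injured mouse only. Relative to the intact mean, Col9a1 stood at 0.77, 0.97, -1.96 and 0.95 in injured mice 1 to 4. Dcn, decorin, lay at 2076, 3034, 5039.5 and 3798 TPM against 1233, 1453 and 1886 TPM. Lox, the enzyme that starts collagen crosslinks, lay at 329, 420.3, 746 and 734 TPM against 189.6, 172 and 305 TPM (1.28 ± 0.32, SE, limma adjusted p 0.1232), and Tgm2, a transglutaminase, at 64.6, 121, 277 and 195 TPM against 35.7, 48.9 and 35.7 TPM. Fn1, fibronectin, named after its values were seen, took 14359, 21438, 9892 and 13182 TPM against 6295, 7532 and 6227 TPM, with mouse 2 highest. In the scar list 4 of 14 were higher without overlap, and Postn, a matricellular protein of scars, was at 1.25, 15.8, 168 and 40.9 TPM against 1.29, 0.397 and 1.11 TPM.

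Of 12 secreted cartilage proteins, 5 were lower without overlap, none was higher, and the median was -0.85. Cilp2, a cartilage intermediate layer protein, lay at 138, 91.5, 27.6 and 107 TPM in injured and 217, 339 and 228 TPM in intact mice. Cilp lay at 121, 126, 128 and 129 TPM, nearly even in the 4 injured mice, against 184, 298 and 188 TPM. Relative to the intact mean the list stood at -0.34, -0.48, -2.22 and -0.51 in injured mice 1 to 4, so mouse 3 was far below the others. In the aggrecan and hyaluronan network 3 of 12 genes were higher and 2 lower without overlap. Cd44, the hyaluronan receptor, lay at 67.8, 119, 566 and 319 TPM against 50.4, 56.7 and 49.2 TPM, the hyaluronan-degrading Cemip at 3.40, 4.66, 10.4 and 8.91 TPM against 2.86, 2.03 and 2.50 TPM, and the link protein gene Hapln1 at 680.3, 998, 1165 and 1181 TPM against 465, 439 and 746 TPM. The lower genes were Hyal1, a lysosomal hyaluronidase, and Vcan, versican, at 1894, 1801, 1031 and 1769.9 TPM against 2078, 2470.5 and 2759 TPM, both named after their values were seen. Acan itself lay at 6454, 6539, 3130.1 and 6276 TPM in injured mice, below the intact range in mouse 3 only.

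**Figure D5:**
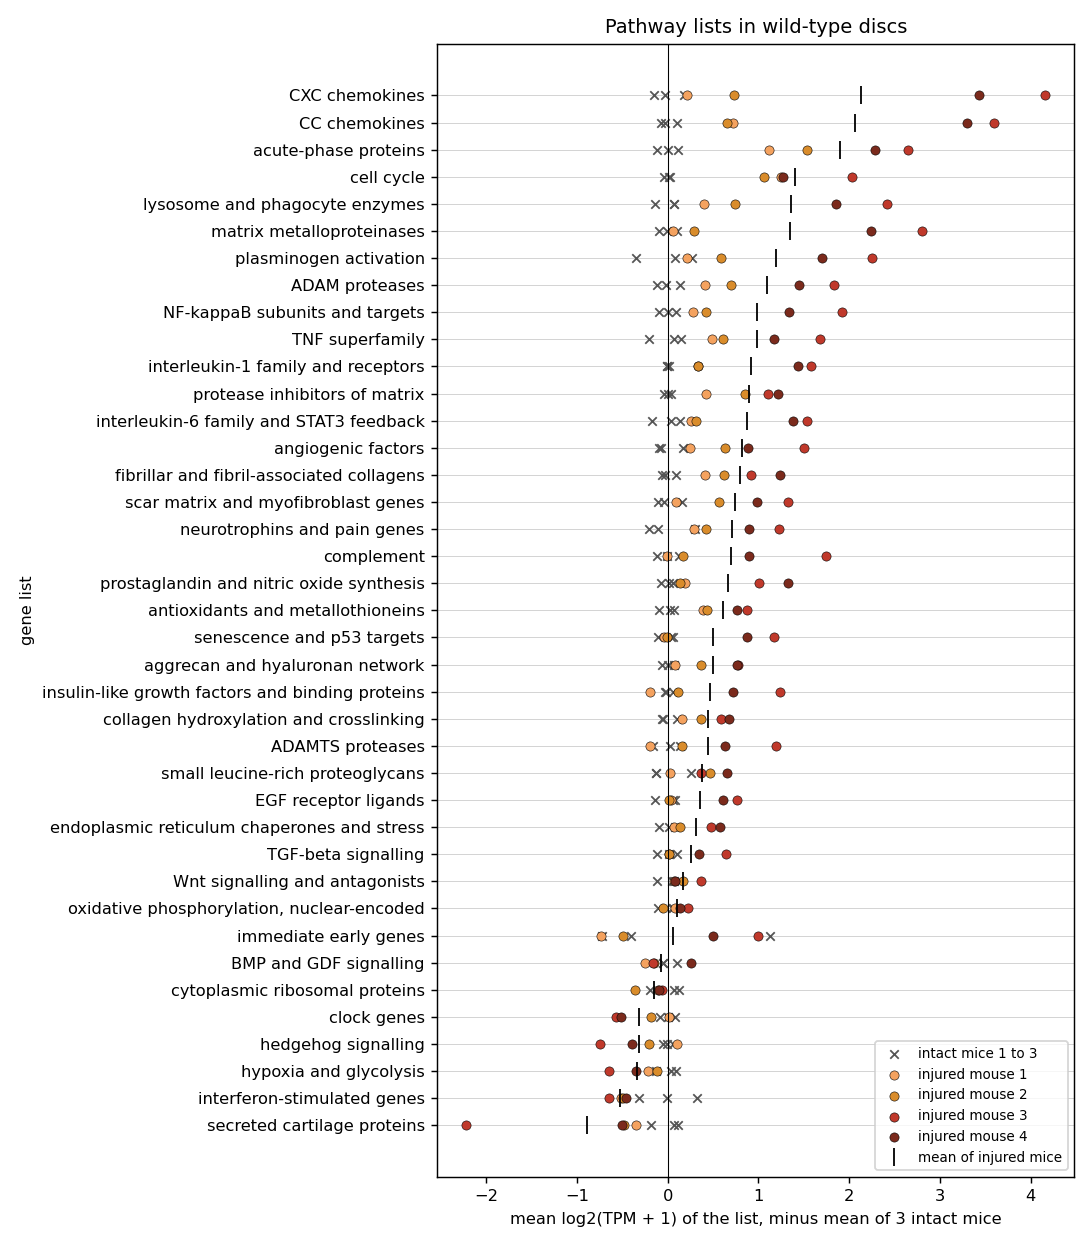
Mean log2(TPM + 1) of each of the 39 pathway lists in each wild-type mouse, minus the mean of the 3 intact mice (crosses: intact, circles: injured mice 1 to 4, bars: injured mean). The cell cycle list stands above the intact mice in all 4 injured mice, from 1.06 to 2.03, while the CXC list runs from 0.21 to 4.16.

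In TGF-beta signalling, 1 gene was higher and 2 were lower without overlap of 14. The higher gene, Ltbp2, a latent-complex and microfibril protein, lay at 37.9, 44.2, 200.4 and 76.6 TPM in injured and 15.6, 18.6 and 13.0 TPM in intact mice (2.13 ± 0.41, SE, limma adjusted p 0.07212). The ligand gene Tgfb3 was lower at 74.3, 72.7, 63.2 and 72.2 TPM against 94.9, 122 and 128 TPM, and the co-receptor gene Tgfbr3 at 328, 261, 225 and 228 TPM against 371, 402 and 405 TPM. In hedgehog signalling, which keeps notochordal cells, 3 of 9 genes were lower and 1 was higher. Its signal transducer Smo lay at 207, 179, 77.2 and 159 TPM against 213, 219.7 and 233 TPM, and the target and effector Gli1 at 85.1, 75.2, 35.4 and 63.2 TPM against 93.6, 92.0 and 87.2 TPM, both lowest in mouse 3. The BMP and Wnt lists had 1 and 0 genes higher and 1 and 2 lower. By limma 0 genes of the TGF-beta, BMP, Wnt and hedgehog lists were called, with 4, 2, 2 and 0 higher and 2, 2, 0 and 2 lower at an unadjusted p under 0.05.

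Vessel and nerve factors were mixed. Aplnr, the apelin receptor, lay at 28.7, 49.2, 44.0 and 23.3 TPM in injured and 9.09, 9.18 and 4.40 TPM in intact mice (2.12 ± 0.50, SE, limma adjusted p 0.1133), highest in mice 2 and 3. Its ligand gene Apln lay at 2.54, 4.70, 7.17 and 5.41 TPM against 1.94, 1.497 and 0.369 TPM. Vegfa, the main vessel growth factor, was lower in every injured mouse, at 175, 241, 160.4 and 227 TPM against 306, 305 and 267 TPM, and so was Vegfb, at 59.0, 47.3, 38.8 and 36.2 TPM against 71.1, 74.8 and 82.9 TPM. Among pain genes, the bradykinin receptor gene Bdkrb1 lay at 16.7, 18.3, 37.8 and 24.5 TPM against 10.4, 13.4 and 11.6 TPM. The neuropeptide gene Npy lay at 1.13, 3.93, 22.4 and 23.7 TPM against 0, 1.11 and 0 TPM. Of neurotrophin and pain genes 4 of 10 were higher without overlap, and Bdnf, Tac1, Calca and Trpv1 were too low to be tested.

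Of 16 antioxidant genes 7 were higher without overlap. Mt1, the neighbour of Mt2, lay at 576, 444, 611 and 514 TPM in injured and 246, 189 and 222 TPM in intact mice, and Txnrd1, thioredoxin reductase, at 70.4, 69.9, 154 and 109 TPM against 51.8, 49.8 and 56.3 TPM. In the hypoxia and glycolysis list 6 of 16 genes were lower and 1 was higher. The higher gene was Hif1a, the oxygen-sensing factor itself, at 339, 368, 481 and 451 TPM against 266, 260.3 and 273 TPM. Its target Slc2a1, a glucose transporter, was lower at 578, 515, 362 and 416 TPM against 853, 919 and 662 TPM, and Bnip3, a mitophagy receptor, at 514, 492, 231 and 322 TPM against 602, 576 and 554 TPM. Of endoplasmic reticulum genes 4 of 16 were higher, among them Xbp1, a secretory-pathway factor, at 170.3, 216, 219.8 and 227 TPM against 136, 137 and 169 TPM. No senescence or p53 gene of 13 was free of overlap. The clock repressor gene Nr1d1 was lower at 537, 479.5, 413 and 583 TPM against 746, 939 and 879 TPM, and the time of day of collection is not given in the sources used here.

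Among immediate early genes, Fosl2, a late AP-1 subunit, lay at 107, 125, 135 and 122 TPM in injured and 86.7, 84.8 and 84.5 TPM in intact mice (0.51 ± 0.11, SE, limma adjusted p 0.1009). Jund was lower at 216, 204, 219 and 211 TPM against 338, 466.14 and 326 TPM, and Fosl1 at 6.94, 7.59, 155 and 89.2 TPM against 5.57, 6.63 and 2.27 TPM was highest in mice 3 and 4. The fast-responding Fos, named after its values were seen, lay at 1079, 37.8 and 20.9 TPM in intact mice and 16.5, 26.3, 207 and 114 TPM in injured mice, so intact mouse 1 exceeded every other wild-type library. The list stood at 1.12, -0.40 and -0.73 in intact mice 1 to 3, and the median change of the list was -0.02, or 0.64 without intact mouse 1, when 5 of the 16 genes were higher without overlap instead of 3. Over all 24188 genes, 3244 were then higher without overlap instead of 2229.

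In further lists, the genes free of overlap were 1 and 1 of 16 genes of oxidative phosphorylation, counted as higher and lower, 0 and 3 of 16 cytoplasmic ribosomal proteins, 1 and 1 of 8 EGF receptor ligands, and 0 and 1 of 9 genes of the insulin-like growth factor system. Small leucine-rich proteoglycans had 4 and 2 of 11, and enzymes of collagen hydroxylation and crosslinking 5 and 1 of 15. Of 16 genes of lysosome and phagocyte enzymes 7 were higher, among them Trem2, a lipid receptor of macrophages, at 2.14, 5.47, 28.7 and 17.7 TPM against 0.961, 0.826 and 0.392 TPM. Cybb, the catalytic subunit of the phagocyte oxidase, lay at 7.00, 15.9, 86.1 and 47.1 TPM against 3.92, 2.38 and 2.34 TPM. Both followed the order of the macrophage markers, with mouse 1 lowest and mouse 3 highest among the injured. Osteoblast, adipocyte, pericyte and red cell markers held no gene free of overlap, hypertrophic chondrocyte markers 1 lower of 6, and Schwann cell markers 1 higher of 8.

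The median change over 24188 genes was 0.01, yet among large changes more were higher, with 1454 genes higher and 716 lower by at least 1 on the log2 scale, 684 and 324 of them without overlap. Among 14681 protein-coding genes, 12.2% were higher and 7.55% lower without overlap. Of genes without overlap 59.2% were higher, but only 51.1% with median-of-ratios scaling and 48.6% with quantile normalization, so the majority depended on the scaling. Among the genes with means above 100 TPM, 12.9% were higher and 16.8% lower without overlap.

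Whether the injury change differed in Adam8EQ mutants was tested as an interaction in the same fit. By limma 0 of 24188 genes passed, and 1979 (8.18%) had an unadjusted p under 0.05. Among the named called genes the smallest unadjusted p were those of Cebpd (0.0362, limma adjusted 0.581) and Bcl3 (0.0366, adjusted 0.581), whose mutant rises were 2.38 and 4.08 against 1.54 and 2.78 in the wild type. Ggta1, Olfml3 and Chil1 changed by 0.95, 1.89 and 3.75 in mutants, against 1.11, 1.80 and 3.33. List medians in the wild type and in mutants were 1.54 and 1.68 for cell cycle, 2.17 and 2.99 for macrophages, and 1.55 and 1.94 for acute-phase proteins. They were -0.71 and -0.09 for interferon-stimulated genes, -0.85 and -2.43 for secreted cartilage proteins, and -0.34 and -1.26 for hedgehog signalling. The differences between these medians were not tested.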

How the data were processed

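Discs of 16 mice were measured, 7 of them wild type. Total RNA was depleted of ribosomal RNA and sequenced, per the labels' protocols, whereas the molecule field of the labels names polyA RNA, so how far RNA without polyA tails was captured is uncertain. Reads were written with bcl2fastq 2.20 and the genome was GRCm38, per the submitters' processing notes. The aligner, the counting, its use of strand and the annotation are not given in the sources used here. The deposited table holds TPM of 49315 genes per library, made by the authors, of which 14054 were at 0 in all libraries. Of its identifiers 99.5% were found in GENCODE M21, which supplied positions, gene types and exon lengths. Gene names are those of the deposited table. TPM keep no depth, so the 10639432 to 14872224 reads per wild-type library are what low values imply if they are whole reads, which 94.0% to 94.9% of them were within 0.05 of a read. They set the counting error of low genes, for which no interval is given.

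The 24188 genes that reached 1 TPM in 3 or more of the 16 libraries were analysed as log2(TPM + 1), with pseudocount 1. Limma 3.58.1 in R 4.3.3 fitted 1 mean per group (lmFit, eBayes with trend) over all 16 libraries, and p-values were adjusted by Benjamini-Hochberg over all tested genes. Whether the mice shared litters or days is not labelled, so p-values measure only the spread between these mice. Python 3.11.15, pandas 2.3.3 and matplotlib 3.10.9 made summaries and figures. Named genes were those past the threshold with a symbol, the 8 largest rises and 8 largest falls of the rest with unadjusted p under 0.05, no overlap and a mean of at least 5 TPM, and up to 4 per list by p with defining markers. The comparison, the members and the lists were chosen with earlier results of these data known. Alternatives were pseudocount 0.1, no filter, a mean of at least 5 TPM, median-of-ratios and quantile scaling, no trend, array weights, a replicate block, only wild-type libraries, and each wild-type mouse left out. The fit was tested on simulated data with known changes. It recovered 30 of 50 genes changed by 1 on the log2 scale (60%). Of 50 genes each changed by 2, 3 and 4, it recovered 46, 47 and 49, and there were 12 false calls. How far these counts hold for the measured mice, whose spread differed between injured and intact groups, was not tested. Values of some list members are not reported here.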

Additional observations from a re-analysis of the deposited data

Results flagged for a closer look

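Of 102 values and list scores tested among the 4 injured mice, 5 had a mouse standing apart from the other 3 by Dixon's criterion, which chance meets in about 1 in 20 groups. Slc39a14 was high in injured mouse 3, at 341 TPM, against 245 to 259 TPM in the others. Scores, the mean log2(TPM + 1) of a list, were low in injured mouse 3 for chondrocytes (6.93), hypertrophic chondrocytes (5.40) and secreted cartilage proteins (6.52). The score of cytoplasmic ribosomal proteins was low in injured mouse 2, at 7.71. The 3 cartilage lists thus had the same mouse apart, and it was also the mouse with the highest value in 21 of the 26 called higher genes.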

How the results depend on the processing

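The number of called genes (28) moved to 64 with pseudocount 0.1, 11 with no filter on low values, 17 with median-of-ratios scaling, 13 without the trend, 77 with array weights and 4 with only wild-type libraries, and was 30 and 35 with a mean of at least 5 TPM and quantile normalization. Leaving out 1 mouse gave 2 (without intact mouse 1) to 452 (without injured mouse 1). The share of called genes that were higher (92.9%) was 50% with only wild-type libraries and 80% to 100% with 1 mouse left out. Genes without overlap numbered 2545 to 3413 higher and 1791 to 3010 lower with 1 mouse left out, where fewer mice make overlap less likely. The genotype interaction (0 genes) reached 4 with array weights and 0 to 15 with 1 mouse left out, 15 without injured mouse 3, and was not run with only wild-type libraries. With the replicate number as a block, 5 genes were called, all of them (100%) higher. Same-numbered injured and intact mice had correlations of deviations of 0.03, -0.10 and -0.05, and differently numbered ones -0.06 to 0.09. So few pairs, with deviations taken from means of 3 and 4 mice, cannot decide whether the numbers pair mice. Of the 44 named changes, 0 reversed under an alternative. In all 44 the groups did not overlap, so only the scalings and the replicate block could have reversed a change. Of the 16 named genes not called, 7 were called under at least 1 alternative. List medians moved by more than the SD of the list score among the 4 injured mice in 17 of 926 combinations of list and setting. This is a wide tolerance. It was 1.96 for CXC chemokines, whose median ran from 1.30 to 3.32 and was not counted as moved. The other causes of these shifts were not tested. Values of low genes rest on few implied reads.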

Other observations

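The groups of genes below were put together after the values were seen, so their counts describe these mice and support nothing. MHC class II genes, which present antigen to helper T cells, had 10 tested members, of which 6 were higher in every injured mouse than in any intact mouse (background 9.22%), with a median change of 1.34. By limma 0 were called, while 7 had an unadjusted p under 0.05. Ciita, the master regulator of the group, lay at 1.58, 2.47, 12.3 and 7.02 TPM in injured and 1.10, 0.897 and 0.591 TPM in intact mice (1.59 ± 0.52, SE, limma adjusted p 0.1757). H2-Ab1, a class II chain, lay at 22.9, 27.1, 179.6 and 86.9 TPM against 15.8, 12.7 and 8.29 TPM. H2-Oa, a brake on peptide loading, did not share this order, at 6.33, 9.58, 1.83 and 2.76 TPM against 10.1, 7.65 and 7.08 TPM.

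Genes of entry into and exit from the endoplasmic reticulum were also examined. Of 26 translocon and COPII coat genes, 11 were higher without overlap, 1 was called (Sec24d) and the median was 0.22. Ostc, a subunit of oligosaccharyltransferase, lay at 54.0, 89.2, 95.8 and 102 TPM in injured and 34.1, 37.2 and 48.1 TPM in intact mice (1.05 ± 0.22, SE, limma adjusted p 0.09224). Sec23b, of the inner COPII coat, lay at 44.2, 50.8, 53.4 and 51.5 TPM against 33.5, 31.8 and 32.1 TPM. Ssr2, of the translocon-associated complex, lay at 107, 124, 153 and 159 TPM against 88.7, 75.4 and 76.4 TPM. All 3 are among the 11, and in the other 15 genes of the group the groups of mice overlapped.

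Around 2 other called genes, relatives were examined. Of 14 genes of serine and one-carbon metabolism, 5 were higher without overlap with a median of 0.15. Mthfd2, the mitochondrial enzyme upstream of the called Aldh1l2, lay at 3.86, 4.99, 9.50 and 9.22 TPM in injured and 2.34, 2.16 and 2.00 TPM in intact mice (1.24 ± 0.30, SE, limma adjusted p 0.1133). Of 20 zinc transporters, 4 were higher without overlap and the median was 0.01. Slc39a1, a zinc importer of the plasma membrane, lay at 153, 162, 238 and 189 TPM against 119, 115 and 104 TPM (0.69 ± 0.14, SE, limma adjusted p 0.07893). Slc39a8, the closest relative of the called Slc39a14, lay at 52.6, 50.1, 11.2 and 15.8 TPM against 41.1, 34.2 and 37.9 TPM, above the intact range in mice 1 and 2 and below it in mice 3 and 4.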
